A study of Mus musculus with 20 samples.

Results

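Fibroblast growth factors (FGFs) and their receptors were followed across mouse embryonic stem cells (mESCs) that were given combinations of signalling pathway activators and inhibitors. Members were the ligand genes Fgf3, Fgf4, Fgf8, Fgf15 and Fgf17 and the receptor genes Fgfr1, Fgfr2, Fgfr3 and Fgfr4, found by symbol in the gene lists of all 3 single-cell experiments. They were 9 of 27998 annotated genes, and every one of them had at least 1 molecule in each experiment. They were picked by symbol, but with earlier results of these data known, so the shares of members called below are descriptions.

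FGF ligands are secreted proteins that bind receptor tyrosine kinases at the cell surface together with heparan sulphate chains, and the bound receptors dimerise and switch on the Ras, MEK and ERK kinase cascade. In mouse embryonic stem cells, Fgf4 acting through the receptors pushes cells out of the naive pluripotent state. In the gastrula, Fgf8 is made in the primitive streak and Fgfr1 is needed for streak cells to leave it and form mesoderm.

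Single-cell RNA-seq used barcodelets, short transfected RNAs that mark every cell with the condition it came from, so that all conditions of an experiment were pooled in 1 library. The cells were male 129P2/OlaHsd mESCs, kept with LIF, GSK3 inhibitor XV and 50 µM UO126, and both inhibitors were withdrawn before any treatment. Each combinatorial treatment lasted 24 h. A pathway was set to plus or minus in every treated population, and all combinations of the pathways were made.

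In the germ layer experiment 5 pathways were crossed in 32 populations, 1 for each combination. Plus and minus were retinoic acid against CD 2665, an antagonist of its receptor, for RA, GSK3 inhibitor XV against IWR1 for Wnt, Activin A against A8301 for Tgfb, Bmp4 against Dorsomorphin for Bmp, and Fgf2 against UO126, an inhibitor of MEK, for Fgf. In the mesendoderm experiment 7 pathways (the same 5, Notch and Shh) were crossed over 384 wells of cells first treated for 24 h with Activin A, Fgf2 and GSK3 inhibitor XV together with Dorsomorphin and CD 2665. The mixed experiment crossed the 5 pathways in 144 wells that began either undirected or after that same pretreatment, and 16 of its wells were controls without combinatorial treatment, 8 for each start. The tables used for the mesendoderm and mixed experiments give pathway signs without naming the compound behind each sign.

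Counts of unique molecules (UMIs) were summed over the cells of each population, or of each well, and populations with at least 5 cells that had passed the deposited assignment were used. The germ layer experiment kept 4350 of 8421 cells (51.7%), with 70 to 230 cells and 991630 to 3816595 UMIs in a population. The mesendoderm experiment kept 2899 of 12781 cells (22.7%), and its 300 tested wells held 5 to 29 cells and 27701 to 332644 UMIs. The mixed experiment kept 4869 of 5944 cells (81.9%), and its 142 tested wells held 5 to 97 cells and 101140 to 2119355 UMIs. No undirected well of RA+Wnt+Tgfb-Bmp+Fgf- was among them. The undirected start thus had 31 treated combinations tested, against 32 after pretreatment. Between 14 and 29 barcodes of passing cells were shared by any 2 libraries. Blood markers Ptprc and Hbb-bh1 were at 0 in all germ layer populations, which does not cover the other blood marker looked at, Cd52. Summed with Cd52, the blood markers were at 0 to 2.215 CPM (counts per 1000000 UMIs) in control wells of the mixed experiment. Pluripotency genes (Pou5f1, Sox2 and Nanog, summed) were present in every germ layer population, at 95.1 to 742 counts per 1000000 UMIs (CPM). Levels below are CPM, the experiments were scaled separately, and a sum cannot tell fewer expressing cells from fewer molecules in each cell.

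Fgf3, Fgf4 and Fgf15 are neighbours on mouse chromosome 7 (GENCODE vM21, build GRCm38) in a span of 62871 bases with no other protein-coding gene between them: Fgf3 at chr7:144838083-144844436, Fgf4 at chr7:144847367-144865243 and Fgf15 at chr7:144896531-144900953, all on the plus strand. Fgf15 overlaps the gene models Gm26793 and Gm39119, with which it could share reads. Fgfr2 lies on the minus strand of the same chromosome, and its annotation extends over 47 other genes of the deposited list. Fgf8 is at chr19:45736798-45742915 and Fgf17 at chr14:70636203-70642268, both on the minus strand. Fgfr1 (chr8:25513654-25575718), Fgfr3 (chr5:33721674-33737068) and Fgfr4 (chr13:55152640-55168759) are on the plus strand.

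Promoter sequence from RefSeq (GRCm38.p6) matched 5 of the 9 members. The stretches below cover 250 to 19 bases before the RefSeq start. They are shown for 3 of these members because their genes had called Wnt effects in pretreated wells of the mixed experiment. Levels with Wnt were higher for Fgf3 and lower for its neighbour Fgf4 and for Fgfr2. CpG dinucleotides are in capitals. The stretches lie at chr7:144838362-144838593 (plus strand), chr7:144861136-144861367 (plus strand) and chr7:130266827-130267058 (minus strand). The RefSeq starts are at 144838612, 144861386 and 130266808. GENCODE draws these genes longer, and each stretch lies inside the GENCODE span of its gene.
Fgf3: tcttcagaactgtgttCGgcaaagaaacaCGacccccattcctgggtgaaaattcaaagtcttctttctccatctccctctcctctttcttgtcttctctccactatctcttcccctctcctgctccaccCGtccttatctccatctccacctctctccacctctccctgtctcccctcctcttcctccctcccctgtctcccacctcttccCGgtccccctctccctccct
Fgf4: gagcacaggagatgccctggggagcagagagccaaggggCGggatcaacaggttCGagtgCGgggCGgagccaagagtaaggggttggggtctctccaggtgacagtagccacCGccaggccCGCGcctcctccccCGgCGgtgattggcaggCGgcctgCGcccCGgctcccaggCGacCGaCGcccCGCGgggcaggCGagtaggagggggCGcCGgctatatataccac
Fgfr2: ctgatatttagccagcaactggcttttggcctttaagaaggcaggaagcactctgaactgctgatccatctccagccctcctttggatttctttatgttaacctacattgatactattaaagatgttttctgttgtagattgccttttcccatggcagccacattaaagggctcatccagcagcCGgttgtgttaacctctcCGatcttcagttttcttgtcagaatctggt

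The Fgf4 stretch held 20 CpG dinucleotides and 70.7% G and C, against 4 and 55.2% for Fgf3 and 2 and 43.5% for Fgfr2, and the medians over 32851 mouse promoters were 5 and 52.2%. Short motifs of factors that act in stem cells or downstream of these pathways were searched on both strands of the windows of all 5 matched members, and no window held CTTTGAT (TCF/LEF, in 3.02% of all promoters), AGGTCA (nuclear receptor half-site, 13.1%), ATGCAAAT (POU octamer, 1.54%) or ACCGGAAGT (ETS, 0.612%).

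The abundance of the members and its spread differed by gene. In the germ layer populations, the lowest, median and highest levels of Fgfr1, the main FGF receptor of the epiblast, were 64.3, 104 and 142 CPM, and 70.5% of cells had at least 1 of its UMIs. Fgf8 ranged from 5.67 through a median of 18.2 to 212.9 CPM, with a UMI in 23.8% of cells. Populations thus lay close together for Fgfr1 and far apart for Fgf8.

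Fgfr2 ranged from 0 through 11.6 to 38.8 CPM and Fgf15, the mouse counterpart of human FGF19, from 0.667 through 6.10 to 63.2 CPM. Fgf17, a close relative of Fgf8, ranged from 0.449 through 6.59 to 29.6 CPM, and Fgf3, known for its part in inner ear development, from 0.598 through 3.98 to 16.1 CPM. Fgf4 (0 to 6.71 CPM, 140 UMIs in all), Fgfr3 (0 to 12.2 CPM, 185 UMIs) and Fgfr4 (0 to 3.21 CPM, 50 UMIs, at 0 in 7 populations) were below the filter on low counts for pathway effects there. Fgfr3 and Fgfr4, receptors best known from the growing skeleton and the liver, were also below the filter in the mixed experiment, with 121 and 34 UMIs over all tested wells.

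In the mesendoderm wells, mean levels were 66.1 CPM for Fgf8 (0 to 414) and 118 CPM for Fgfr1 (19.7 to 317), and these were the only members that passed the filter on low counts in wells this shallow. Means of the others were 21.3 for Fgf17, 14.8 for Fgf3, 7.56 for Fgf15, 6.64 for Fgfr2, 3.75 for Fgf4, 1.08 for Fgfr3 and 0.750 for Fgfr4. In the mixed wells the means were 82.7 for Fgfr1, 24.5 for Fgf8, 17.0 for Fgf4, 11.04 for Fgf17, 10.7 for Fgfr2, 5.51 for Fgf15 and 3.90 for Fgf3. Fgf4 gave 1646 UMIs there, against 140 in the germ layer experiment. These are levels within each library and carry no test between experiments.

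**Figure D1:**
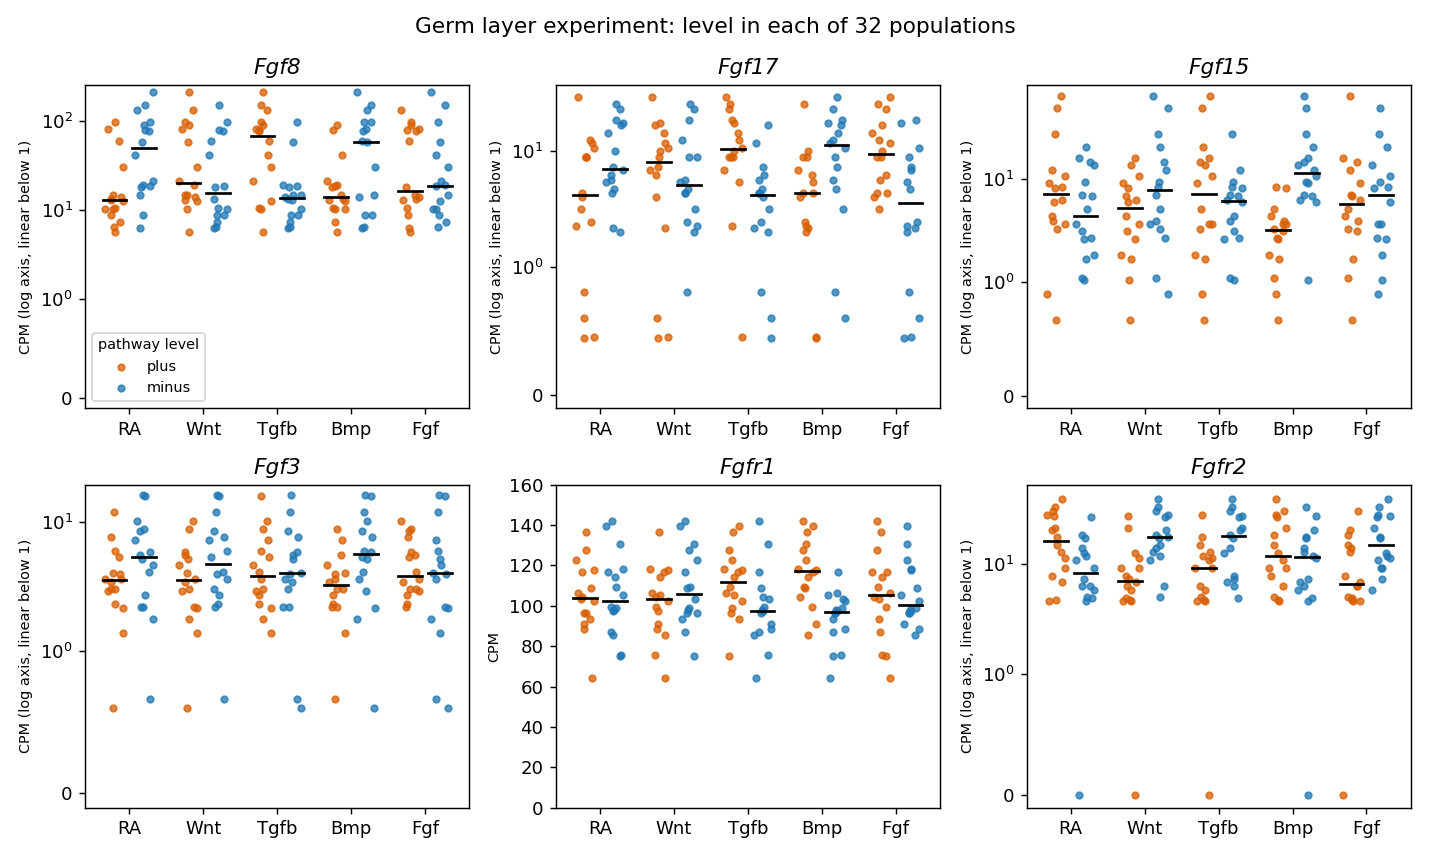
Level of 6 FGF genes in each of the 32 germ layer populations (y axis, CPM; on a log axis that is linear below 1, except Fgfr1 on a linear axis from 0), split by the level of each pathway (x axis, plus in orange and minus in blue; the bar is the median of 16 populations). The Fgf8 points of both levels overlap for every pathway, and the medians lie farthest apart for RA, Tgfb and Bmp.

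Pathway effects below are log2 differences between plus and minus from edgeR's quasi-likelihood test on all genes, with standard errors and p-values adjusted by Benjamini and Hochberg over all genes tested, and an effect was called at an adjusted p under 0.05. Over the 6 members tested in the germ layer experiment, 16 of 30 effects were called (53.3%), 6 higher and 10 lower, against 21.9% of the effects of all tested genes (11.3% higher, 10.7% lower). The count runs over the members that passed the filter and not over all 9. By pathway, the share of all genes called was 27.7% for RA, 23.9% for Wnt, 7.02% for Tgfb, 43.1% for Bmp and 7.93% for Fgf.

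Fgf8 was lower with RA and Bmp and higher with Tgfb. Its level was 5.67 to 97.2 CPM with RA (median 12.9) and 6.32 to 212.9 CPM with the RA receptor antagonist (median 49.6). The groups overlapped, and the fitted difference was -1.45 ± 0.28 (adjusted p = 0.000119). With Activin A the level was 5.67 to 212.9 CPM (median 68.1) and with A8301 it was 6.32 to 98.7 CPM (median 13.8), a difference of 1.74 ± 0.28 (adjusted p = 5.06e-05). With Bmp4 the level was 5.67 to 90.8 CPM (median 14.02) and with Dorsomorphin it was 6.32 to 212.9 CPM (median 58.6), a difference of -1.47 ± 0.28 (adjusted p = 5.06e-05). Differences of 0.35 ± 0.28 for Wnt (adjusted p = 0.392) and 0.16 ± 0.27 for Fgf (adjusted p = 0.799) were not called.

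The 3 highest Fgf8 populations all combined no RA, Tgfb and no Bmp: 212.9 CPM in RA-Wnt+Tgfb+Bmp-Fgf-, 152 CPM in RA-Wnt-Tgfb+Bmp-Fgf- and 134 CPM in RA-Wnt+Tgfb+Bmp-Fgf+. The lowest, 5.67 CPM, was RA+Wnt+Tgfb+Bmp+Fgf+, in which every pathway was on. After each cell had been thinned to 5000 UMIs, 19.1% of cells without RA had an Fgf8 UMI (exact binomial interval 17.22% to 21.03%) against 8.87% with RA (7.79% to 10.1%), and unthinned shares were 32.3% and 18.0% at median depths of 16120 and 14790 UMIs. Mean UMIs in an Fgf8-positive thinned cell were 1.70 without RA and 1.40 with RA, so both the share of cells and the molecules in a positive cell were higher without RA. The intervals cover counting error only, and no cell type that lacks these genes was at hand to measure free RNA.

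Primitive streak genes (T, Eomes, Mixl1, Gsc and Mesp1, summed) moved with the same pathways as Fgf8: means were 48.3 with RA and 213 CPM without, 196 with Tgfb and 65.3 without, and 91.5 with Bmp and 170 without. They also differed with Wnt (204 against 57.8 CPM), for which no Fgf8 effect was called. The sums ranged from 13.4 to 868.9 CPM over all populations, and their part in the Fgf8 values was not tested.

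Fgf17 was the ligand that also rose with Fgf signalling itself. Its level was 3.19 to 29.6 CPM with Fgf2 (median 9.50) and 0.449 to 18.6 CPM with the MEK inhibitor (median 3.58), a difference of 1.25 ± 0.24 (adjusted p = 0.00108). Fgf17 shared the directions of Fgf8 for Tgfb (1.45 ± 0.24, adjusted p = 7.96e-05; medians 10.4 and 4.19 CPM), Bmp (-1.02 ± 0.24, adjusted p = 0.000653; 4.34 and 11.3 CPM) and RA (-0.76 ± 0.23, adjusted p = 0.0143; 4.19 and 7.08 CPM). The ranges overlapped for all of these pathways. The RA call was lost without the population RA-Wnt-Tgfb+Bmp+Fgf+ (adjusted p = 0.0525), and the Bmp call with UMIs per cell as a covariate (adjusted p = 0.0798); mean UMIs per cell were 17330 with Bmp and 15850 without. Of thinned cells with an Fgf17 UMI, 32.1% also had an Fgf8 UMI, against 12.2% of cells without one. These cells were pooled over all germ layer populations, so differences between populations enter both shares.

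Fgf15 was lower with Bmp. Its level was 0.667 to 8.35 CPM with Bmp4 (median 3.21) and 1.04 to 63.2 CPM with Dorsomorphin (median 11.48), a difference of -2.19 ± 0.30 (adjusted p = 3.75e-07) that was called in all 32 fits that left out 1 population, although the ranges overlapped. It was lower with Wnt (5.96 against 14.4 CPM on average; -1.05 ± 0.29, adjusted p = 0.0074), a call that DESeq2 did not make (adjusted p = 0.0857). It was higher with RA (13.5 against 6.88 CPM; 0.79 ± 0.29, adjusted p = 0.0427). That call rests on few populations: it was lost in 14 of the 32 fits that left out 1 population and with DESeq2 (adjusted p = 0.0815). The highest values were 63.2 CPM in RA+Wnt-Tgfb+Bmp-Fgf+ and 48.8 CPM in RA+Wnt-Tgfb+Bmp-Fgf-, and the next was 26.9 CPM. Neural genes (Sox1, Pax6, Zic1 and Hoxb1, summed) averaged 19.2 CPM with Bmp (4.25 to 36.3) and 62.9 CPM without (5.91 to 142.5), and their part in the Fgf15 values was not tested.

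Fgf3 was lower with Bmp (0.660 to 8.75 CPM, median 3.23) than without (0.598 to 16.1 CPM, median 5.58), a difference of -0.80 ± 0.28 (adjusted p = 0.0188) that was not called with UMIs per cell as a covariate (adjusted p = 0.12). Its values for the other pathways lay between -0.61 ± 0.27 (RA, adjusted p = 0.0946) and -0.07 ± 0.28 (Fgf, adjusted p = 0.929), and none was called. Fgf4, below the filter, had its highest level, 6.71 CPM, in the population with every pathway off, the same population in which Fgf3 was highest at 16.11 CPM. Fgf3 was almost as high, at 16.05 CPM, in RA-Wnt-Tgfb+Bmp-Fgf-, where Fgf4 was 4.22 CPM. Across the 32 populations the Pearson correlation of log2(CPM + 5) was 0.476 for Fgf3 with Fgf4 and 0.136 for Fgf4 with Fgf15, a description over populations that share 1 library.

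Among the receptors, Fgfr2 moved with 4 pathways and Fgfr1 with 1. Fgfr2 was 0 to 27.5 CPM with Wnt (median 7.07) and 5.04 to 38.8 CPM without (median 17.5), a difference of -1.16 ± 0.14 (adjusted p = 5.17e-08). It was also lower with Tgfb (9.82 against 18.4 CPM on average; -0.92 ± 0.14, adjusted p = 1.25e-05) and with Fgf (10.1 against 18.1 CPM; -0.91 ± 0.13, adjusted p = 2.29e-05), and higher with RA (18.1 against 10.1 CPM; 0.82 ± 0.14, adjusted p = 2.25e-05). The direction for RA and Tgfb was thus opposite to that of Fgf8, and the correlation of Fgf8 with Fgfr2 over the populations was -0.586. The highest Fgfr2 level, 38.8 CPM, was in RA+Wnt-Tgfb-Bmp+Fgf-, and the single population at 0 was RA-Wnt+Tgfb+Bmp-Fgf+.

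Fgfr1 was 85.6 to 142 CPM with Bmp4 (median 117) and 64.3 to 117 CPM with Dorsomorphin (median 96.8). The difference of 0.31 ± 0.07 (adjusted p = 0.000229) was small beside those of the ligands, and the ranges overlapped. Its other effects lay between -0.11 ± 0.07 (Wnt, adjusted p = 0.228) and 0.18 ± 0.07 (Tgfb, adjusted p = 0.107). Fgfr3 reached 12.2 CPM in RA-Wnt+Tgfb-Bmp+Fgf- and 6.90 CPM in the next population, and 3.21 CPM was the highest level of Fgfr4, and neither passed the filter.

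With no filter on low counts, 3 further germ layer effects were called. Fgf4 was lower with RA (-0.89 ± 0.29, adjusted p = 0.0268; 1.40 against 2.80 CPM on average) and with Wnt (-0.96 ± 0.29, adjusted p = 0.0211; 1.44 against 2.76 CPM). Fgfr3 was higher with Bmp (1.08 ± 0.30, adjusted p = 0.00529; 3.59 against 1.504 CPM). The shares of all genes called in those fits were 14.8% for RA, 12.4% for Wnt and 24% for Bmp, and ranges overlapped for these genes.

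Whether 1 pathway altered the effect of another was asked with a product term for each pair of pathways, the change in the effect of the first pathway when the second goes from minus to plus. In the germ layer experiment 8 members entered this fit and 2 of 80 products were called (2.5%), against 1.42% over all genes. Fgf15 had a Tgfb by Bmp product of -2.02 ± 0.46 (adjusted p = 0.0103; 3.01% of genes called for this pair). Its mean was 24.5 CPM (9.16 to 63.2) with Tgfb and without Bmp, 9.45 CPM (1.04 to 26.9) with neither, 4.27 CPM (1.09 to 8.35) with Bmp alone and 2.59 CPM (0.667 to 5.04) with both. All 8 populations with Tgfb and without Bmp lay above all 16 with Bmp.

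Fgf3 had a Wnt by Bmp product of 1.64 ± 0.42 (adjusted p = 0.0192; 3.87% of genes called for this pair). Its mean was 9.46 CPM (4.05 to 16.1) with neither pathway, and 4.04 CPM with Wnt alone, 3.21 CPM with Bmp alone and 4.12 CPM with both. The means of the 3 sets with either pathway on thus lay close together, below that of the set with neither. For Fgf8 the Wnt by Bmp product was -1.15 ± 0.45 (adjusted p = 0.167) and was not called.

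In the mesendoderm experiment 6 of 14 effects on Fgf8 and Fgfr1 were called (42.9%), against 15.9% over all genes. Fgf8 was 0 to 194 CPM with RA (median 21.2; 37 of 146 wells at 0) and 0 to 414 CPM without (median 80.0; 17 of 154 wells at 0). The difference was -1.35 ± 0.15 (adjusted p = 1.39e-15; 21.9% of genes called for RA). Fgf8 was higher with Wnt (median 67.0 against 22.4 CPM; 0.54 ± 0.15, adjusted p = 0.0016; 39.6% of genes) and with Tgfb (median 58.0 against 34.5 CPM; 0.53 ± 0.15, adjusted p = 0.00746; 10.1% of genes). With Bmp it was lower (median 30.1 against 51.1 CPM; -0.39 ± 0.15, adjusted p = 0.0301; 29.3% of genes). Well ranges overlapped in each case.

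With at least 10 cells in a well, the Fgf8 values were 0.66 for Tgfb (adjusted p = 0.0801) and -0.11 for Bmp (adjusted p = 0.873). Neither Fgf8 nor Fgfr1 was called for Fgf, Notch or Shh, for which 9.28%, 1.16% and 0.043% of all genes were, although with no filter on low counts Fgfr1 was higher with Fgf (0.22 ± 0.06, adjusted p = 0.029; 2.09% of genes). Streak genes averaged 188 CPM with RA and 464 CPM without, and 416 CPM with Wnt and 246 CPM without; their part was not tested. Fgfr1 differed by -0.17 ± 0.06 for Wnt (adjusted p = 0.0176; 113 against 123 CPM) and 0.17 ± 0.06 for Tgfb (adjusted p = 0.0456; 126 against 113 CPM). With all pairwise products in the model these became -0.08 (adjusted p = 0.301) and 0.15 (adjusted p = 0.122). With a term for the set of wells the Tgfb value was 0.18 (adjusted p = 0.116), and with no filter neither was called (adjusted p = 0.0701 and 0.09); nor was the Bmp effect on Fgf8 (adjusted p = 0.117).

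When the wells of each of the 128 combinations were summed, Fgf17 also entered the fit. It was higher with Wnt (1.88 ± 0.16, adjusted p = 3.17e-20; wells averaged 33.5 against 9.41 CPM) and with Tgfb (0.63 ± 0.15, adjusted p = 0.00191; 27.3 against 17.9 CPM) and lower with RA (-0.52 ± 0.15, adjusted p = 0.00831; 18.6 against 23.8 CPM). The shares of the 4619 genes called in those fits were 33% for Wnt, 7.38% for Tgfb and 16.4% for RA. With no filter on low counts, Fgf17 was again called for Wnt (1.84 ± 0.16, adjusted p = 1.12e-23) and Tgfb (0.66 ± 0.15, adjusted p = 0.00113), but not for RA (-0.40 ± 0.15, adjusted p = 0.0982).

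In that unfiltered fit Fgf3 was higher with Wnt (0.63 ± 0.18, adjusted p = 0.00677) and Bmp (0.60 ± 0.19, adjusted p = 0.025) and lower with RA (-0.65 ± 0.18, adjusted p = 0.0106). Fgfr2 was lower with Wnt (-1.16 ± 0.19, adjusted p = 6.83e-08) and higher with Bmp (0.56 ± 0.18, adjusted p = 0.0341). The shares of all genes called were 7.27% for RA, 13.9% for Wnt, 2.8% for Tgfb and 7.6% for Bmp. No effect of RA, Wnt or Tgfb was called for Fgf4, Fgf15, Fgfr3 or Fgfr4.

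Of 42 products for Fgf8 and Fgfr1, 3 were called, all for Fgf8 and all with Wnt (7.14%, against 0.822% over all genes). The Wnt by Bmp product was 1.60 ± 0.28 (adjusted p = 2.63e-06; 10.4% of genes). Mean Fgf8 was 34.4 CPM with Bmp and without Wnt, 82.7 CPM with neither, 65.6 CPM with Wnt alone and 81.5 CPM with both, so wells with Bmp alone stood below the other 3 sets. The Wnt by Tgfb product was -1.58 ± 0.28 (adjusted p = 9.22e-05; 0.292% of genes), with means of 37.5 CPM with neither, 92.8 CPM with Tgfb alone, 78.2 CPM with Wnt alone and 66.7 CPM with both. The RA by Wnt product was 1.26 ± 0.30 (adjusted p = 0.00348; 3.6% of genes), with 19.5 CPM under RA alone, 54.1 CPM under both, 92.7 CPM under Wnt alone and 96.0 CPM under neither. That last call was narrowly missed with at least 10 cells in a well (1.94, adjusted p = 0.0504).

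**Figure D2:**
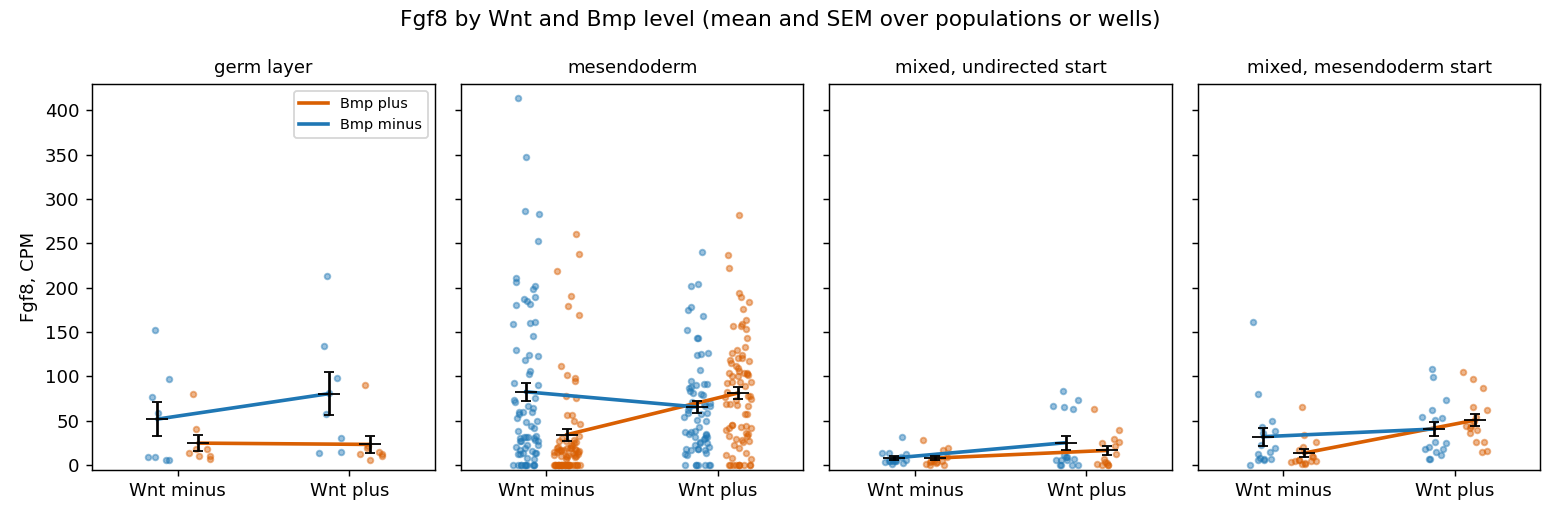
Fgf8 level (y axis, CPM from 0) by Wnt level (x axis) with Bmp plus in orange and Bmp minus in blue, for germ layer populations and for the wells of the other experiments; points are populations or wells, black marks are means with standard errors of the mean over them, and lines join means. In the mesendoderm wells the means were 34.4 CPM with Bmp alone and 82.7 CPM with neither, and in mixed wells after the mesendoderm pretreatment 13.7 and 32.2 CPM. With Wnt the Bmp plus lines lie level or above in these panels, and below in the germ layer and undirected mixed panels.

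Control wells of the mixed experiment gave the FGF gene levels without any combinatorial treatment. Fgf8 was 4.13, 5.36, 5.86, 6.22, 7.77, 8.57, 10.1 and 15.5 CPM in the 8 undirected wells, and 30.5 to 60.5 CPM (median 39.0) in the 8 wells after mesendoderm pretreatment. The groups did not overlap, and the difference was 2.39 ± 0.44 (adjusted p = 1.61e-05). Fgf4 was lower after pretreatment, at 12.6 to 36.2 CPM (median 19.3) against 35.8 to 64.3 CPM (median 53.3), a difference of -1.30 ± 0.23 (adjusted p = 4.78e-06), and only the highest pretreated well reached the lowest undirected one. Fgf15 was 0 to 7.78 CPM (median 1.66) against 0 to 31.4 CPM (median 18.9), a difference of -3.02 ± 0.44 (adjusted p = 7e-08). Of all genes tested, 8.57% were called in this contrast.

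All but 1 of the 8 undirected control wells held Fgf15 at 14.9 to 31.4 CPM, above every pretreated well, and the other, tagged CC, J and K with 24 cells, was at 0. That well also had the highest Fgf8 (15.5 CPM) and Fgf17 (19.9 CPM) of its group; its naive stem cell genes summed to 1874 CPM, the highest of the undirected controls, and its primed epiblast genes to 494 CPM, the lowest. Without it the start differences were 2.53 for Fgf8, -1.31 for Fgf4 and -3.16 for Fgf15. Streak genes averaged 68.0 CPM after pretreatment and 28.1 CPM in undirected controls, naive genes 2229 and 1416 CPM, and primed epiblast genes 173 and 684 CPM, and the part of these differences was not tested. The wells of the starts, control and treated, carried different tags (BB and CC against DD and Z). Start and set of wells thus cannot be told apart in any contrast between the starts, here or below.

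**Figure D3:**
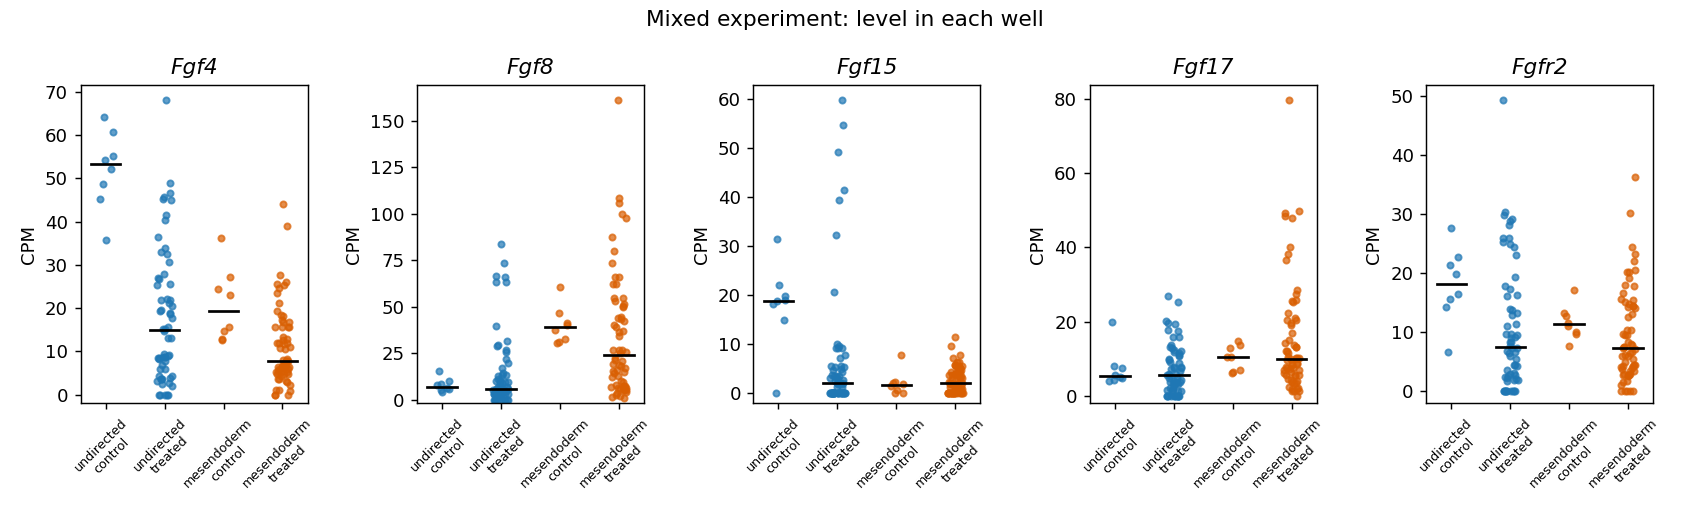
Level of 5 FGF genes (y axes, CPM from 0) in each well of the mixed experiment, undirected start in blue and mesendoderm start in orange, control and treated wells apart on the x axis; bars are medians. Undirected control wells lie at 35.8 to 64.3 CPM for Fgf4 and 4.13 to 15.5 CPM for Fgf8, and mesendoderm control wells at 12.6 to 36.2 and 30.5 to 60.5 CPM.

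Treated wells also differed between starts. In both contrasts together 8 of 14 member differences were called (57.1%), against 17.1% over all genes. Averaged over pathway levels, the mesendoderm start was higher for Fgf8 (1.48 ± 0.21, adjusted p = 1.42e-09; means 34.4 and 14.5 CPM), Fgf17 (1.03 ± 0.18, adjusted p = 9.45e-07; 15.3 and 7.26 CPM), Fgf3 (0.91 ± 0.30, adjusted p = 0.0134; 5.72 and 2.60 CPM) and Fgfr1 (0.20 ± 0.06, adjusted p = 0.00346; 88.0 and 75.9 CPM). It was lower for Fgf4 (-0.49 ± 0.16, adjusted p = 0.0124; 11.2 and 17.9 CPM). In this contrast 25.6% of all genes were called, and treated wells overlapped between starts for each of these genes.

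Treated wells had less Fgf4 than controls in both starts. The difference was -1.94 ± 0.19 in the undirected start (adjusted p = 3.96e-16; treated median 15.0 CPM, control 53.3 CPM) and -1.13 ± 0.20 after pretreatment (adjusted p = 2.97e-06; 7.85 and 19.3 CPM). Undirected treated wells were also lower for Fgf15 (-2.87 ± 0.35, adjusted p = 2.65e-11; median 2.21 against 18.9 CPM) and Fgfr2 (-1.31 ± 0.23, adjusted p = 3.42e-06; 7.51 against 18.2 CPM). After pretreatment Fgfr2 was also lower in treated wells (-0.55 ± 0.20, adjusted p = 0.0417; 7.42 against 11.3 CPM). These 5 of 14 called differences (35.7%, against 17.4% over all genes, and 19.3% and 15.5% in each start) were all lower in treated wells, as 9.74% of all gene differences were, and ranges of treated and control wells overlapped. With no filter Fgfr1 was also lower in undirected treated wells (-0.30 ± 0.10, adjusted p = 0.0235; 9.07% of genes), and Fgf8 in pretreated ones (-0.57 ± 0.11, adjusted p = 2.03e-05; 7.68% of genes). Without the well tagged CC, J and K 6 calls were made and these 5 values lay between -3.02 and -0.55.

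Pathway effects within the starts of the mixed experiment were called for 33 of 70 member effects (47.1%), against 19.8% over all genes. By pathway, all-gene shares were 34.3% (RA), 36.1% (Wnt), 4.14% (Tgfb), 7.81% (Bmp) and 13.3% (Fgf) in the undirected start, and 30%, 41.1%, 6.96%, 10.7% and 13.6% after pretreatment. Without scaling beyond the UMI total, the median of all genes for Wnt shifted by -0.14 in either start; the called Wnt effects on members, between -2.85 and 2.41 and none closer to 0 than 0.55, kept their sign.

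Fgf8 was lower with RA in both starts. In the undirected start it was 0 to 14.2 CPM with RA (median 4.02) and 0 to 83.7 CPM without (median 13.2), a difference of -1.89 ± 0.36 (adjusted p = 6.43e-06). After pretreatment it was 0.594 to 44.3 CPM (median 14.7) and 1.56 to 161 CPM (median 50.8), a difference of -1.59 ± 0.18 (adjusted p = 2.97e-13). It was higher with Wnt in the undirected start (1.14 ± 0.33, adjusted p = 0.00304; median 8.22 against 5.15 CPM) and after pretreatment (1.21 ± 0.18, adjusted p = 6.58e-09; 43.1 against 9.82 CPM). The undirected Tgfb effect was 1.15 ± 0.34 (adjusted p = 0.0299), but 1.11 with an adjusted p of 0.0554 for wells with at least 10 cells, and with all products in the model neither the undirected Wnt (adjusted p = 0.235) nor the Tgfb effect (adjusted p = 0.171) was called.

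Fgf17 was lower with RA, as Fgf8 was, and higher with Tgfb in both starts. With RA it was lower in undirected wells (median 3.43 against 9.76 CPM; -1.16 ± 0.29, adjusted p = 0.000585) and after pretreatment (7.21 against 20.5 CPM; -1.44 ± 0.16, adjusted p = 1.86e-13). The Tgfb effects were 1.09 ± 0.29 (adjusted p = 0.0107) and 0.52 ± 0.16 (adjusted p = 0.0256), where that on Fgf8 after pretreatment was 0.45 ± 0.18 (adjusted p = 0.135) and was called with no filter (adjusted p = 4.78e-05; 4.16% of genes). After pretreatment it was also higher with Wnt (median 19.8 against 7.20 CPM; 1.44 ± 0.16, adjusted p = 7.28e-14). Streak genes in the pretreated wells averaged 213 CPM with Wnt and 60.9 CPM without, and 74.3 CPM with RA and 200 CPM without; their part was not tested.

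Among the main fits of pathway effects, Fgf4 passed the filter only in this experiment. In undirected wells it was lower with RA (median 8.60 against 21.6 CPM; -1.36 ± 0.19, adjusted p = 1.89e-09), Wnt (7.62 against 21.2 CPM; -1.13 ± 0.21, adjusted p = 3.58e-06) and Fgf (8.21 against 21.6 CPM; -0.58 ± 0.19, adjusted p = 0.0211), and higher with Tgfb (20.9 against 8.96 CPM; 0.86 ± 0.19, adjusted p = 0.000985). After pretreatment it was lower with Fgf (6.06 against 14.5 CPM; -1.16 ± 0.18, adjusted p = 1.81e-07), RA (-0.57 ± 0.18, adjusted p = 0.00965) and Wnt (-0.55 ± 0.18, adjusted p = 0.00944). Fgf8 was not called for Fgf (-0.50 ± 0.33, adjusted p = 0.34, and -0.43 ± 0.18, adjusted p = 0.0968), but with no filter it too was lower with Fgf in both starts (adjusted p = 0.048 and 0.000299; 5.32% and 6.83% of genes). With no filter Fgf4 was also higher with Bmp after pretreatment (0.44 ± 0.14, adjusted p = 0.0249; 5.95% of genes). Naive stem cell genes averaged 1340 CPM with Fgf and 1517 CPM without in undirected wells, and 1211 and 1629 CPM after pretreatment; their part was not tested.

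Fgf3 was higher with Wnt after pretreatment, at 0 to 33.5 CPM (median 6.995) against 0 to 5.03 CPM (median 1.09), a difference of 2.41 ± 0.27 (adjusted p = 3.18e-14). It was also higher there with Bmp (4.04 against 1.64 CPM, a difference of 1.39 ± 0.25, adjusted p = 1.37e-05). In the germ layer experiment, whose cells had no pretreatment, Fgf3 was lower with Bmp. The undirected mixed wells had a Bmp value of 0.69 ± 0.37 for Fgf3 with no filter (adjusted p = 0.408). The difference between experiments was not tested. With Tgfb, Fgf3 was lower in both starts (-1.52 ± 0.46, adjusted p = 0.0329, and -0.80 ± 0.25, adjusted p = 0.0282). The Tgfb calls were lost with at least 10 cells in a well (undirected, adjusted p = 0.111) and with DESeq2 (pretreated, adjusted p = 0.0572).

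Fgf15 in undirected wells was lower with Wnt (0 to 7.27 CPM, median 0, against 0 to 59.8 CPM, median 4.94; -2.85 ± 0.41, adjusted p = 1.8e-09). The fitted effects of RA (-1.99 ± 0.32, adjusted p = 9.83e-08) and Tgfb (2.21 ± 0.34, adjusted p = 2.65e-07) rested on few wells. Medians were 2.73 CPM with RA and 2.12 CPM without, although means were 2.91 and 11.04 CPM. The 8 wells without RA, without Wnt and with Tgfb held 9.74, 20.75, 32.3, 39.5, 41.4, 49.1, 54.7 and 59.8 CPM, and no other treated undirected well exceeded 10.2 CPM. With all products in the model the effects were -0.29 for RA (adjusted p = 0.822) and 1.41 for Tgfb (adjusted p = 0.141). The RA direction was opposite to that in the germ layer experiment, where Fgf15 was higher with RA. This difference between experiments was not tested. No Fgf15 effect was called after pretreatment, where its level never exceeded 11.46 CPM. With or without the filter, no Bmp effect on Fgf8, Fgf17 or Fgf15 was called in either start. In the germ layer experiment these genes were lower with Bmp. Unfiltered undirected values were -0.42 (adjusted p = 0.169), 0.11 (0.933) and -0.65 (0.0974) in that order. After pretreatment they were -0.18 (0.29), -0.09 (0.794) and -0.43 (0.398). A difference between the experiments was tested for none of them.

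Fgfr2 was lower with Wnt in both starts: 0 to 17.8 CPM against 4.39 to 49.4 CPM in undirected wells (-2.32 ± 0.25, adjusted p = 3.41e-15) and 0 to 9.71 CPM against 3.38 to 36.2 CPM after pretreatment (-1.87 ± 0.17, adjusted p = 9.46e-20). Every well at 0 for Fgfr2 in either start had Wnt on. It was higher with RA (0.86 ± 0.19, adjusted p = 0.000115, and 0.46 ± 0.16, adjusted p = 0.0162) and lower with Fgf in undirected wells (-0.62 ± 0.18, adjusted p = 0.0113) and with Tgfb after pretreatment (-0.46 ± 0.15, adjusted p = 0.0483). With all products in the model, the pretreated RA (adjusted p = 0.183), undirected Fgf (adjusted p = 0.167) and pretreated Tgfb (adjusted p = 0.217) calls were lost.

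Fgfr1 changed in the undirected start. It was lower with Fgf (24.5 to 121 CPM, median 62.4, against 13.2 to 143 CPM, median 87.7; -0.45 ± 0.08, adjusted p = 3.35e-05), higher with Bmp (median 85.6 against 70.8 CPM; 0.35 ± 0.08, adjusted p = 0.0029) and higher with RA (80.1 against 69.6 CPM; 0.30 ± 0.09, adjusted p = 0.00344). After pretreatment no Fgfr1 effect was called with the filter, and without it the Fgf effect was (0.19 ± 0.06, adjusted p = 0.0335). Fgfr3, below the filter, was lower with Wnt in the unfiltered fit (-1.38 ± 0.49, adjusted p = 0.0307, and -1.17 ± 0.35, adjusted p = 0.00523; 17.2% and 21.7% of genes) and higher with Bmp after pretreatment (1.11 ± 0.34, adjusted p = 0.0243).

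**Figure D4:**
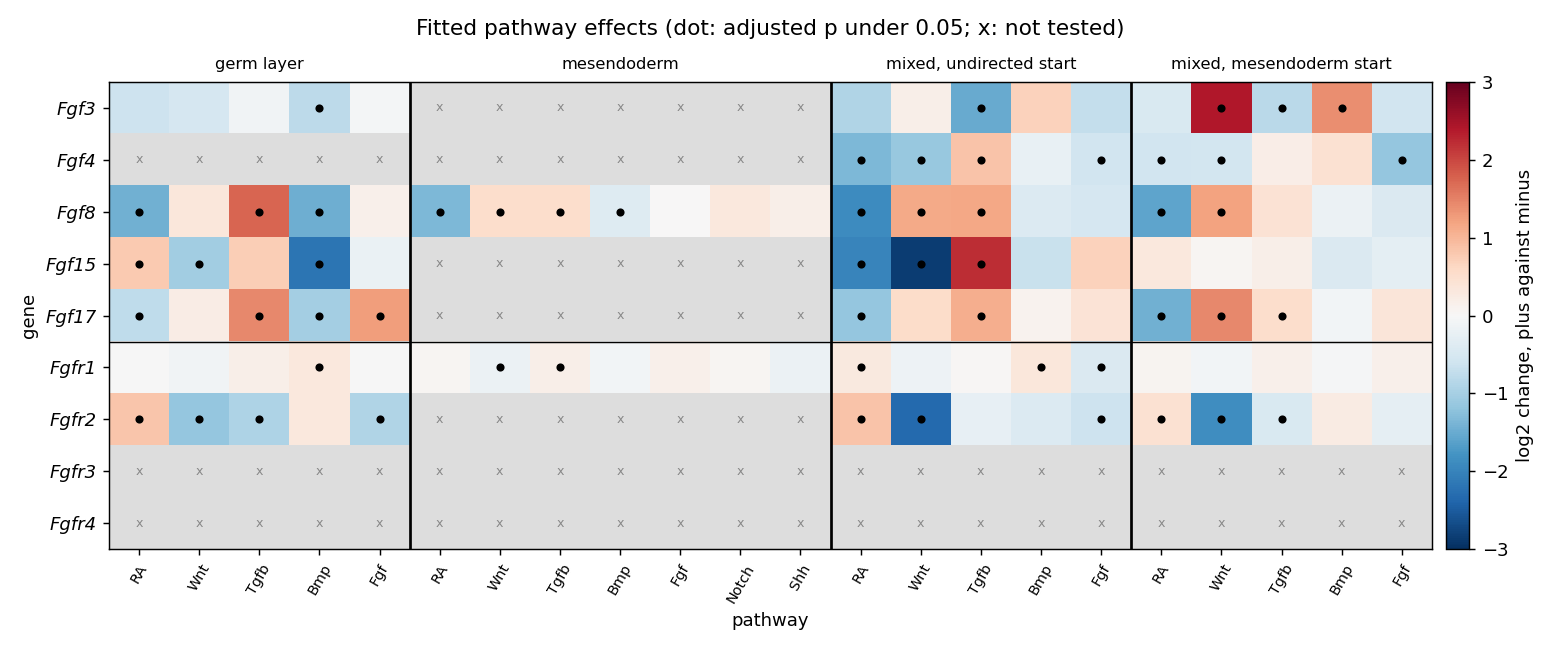
Fitted pathway effects on the FGF genes (rows) in each experiment and start (columns): colour gives the log2 change of plus against minus, a dot an adjusted p under 0.05, and a cross a gene below the filter on low counts. Fgf8 is lower with RA in all 4 blocks, between -1.89 and -1.35, and Fgfr2 is lower with Wnt in the 3 blocks in which it was tested, between -2.32 and -1.16.

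The difference between the starts was tested for each pathway effect, and 4 of 35 member differences were called (11.4%), against 3.02% over all genes. The Wnt effect on Fgf3 was 0.17 ± 0.47 in undirected wells and 2.41 ± 0.27 after pretreatment (difference 2.24 ± 0.55, adjusted p = 0.00314), and that on Fgf15 was -2.85 ± 0.41 and 0.06 ± 0.32 (difference 2.92 ± 0.55, adjusted p = 6.07e-05, with 7.77% of genes called for Wnt). Fgf3 was sparse in undirected wells. Its highest combination means there were 23.7 CPM (with Wnt), 11.8 CPM (without Wnt) and 5.21 CPM (with Wnt), and other combinations were at 0. The RA effect on Fgf15 was -1.99 ± 0.32 and 0.32 ± 0.32 (difference 2.31 ± 0.46, adjusted p = 0.000255, with 5.68% of genes called). The undirected RA effect on Fgf15 rested on few wells and was -0.29 (adjusted p = 0.822) with all products in the model. The differences between starts were not refitted with products. The Fgf effect on Fgfr1 was -0.45 ± 0.08 and 0.16 ± 0.07 (difference 0.60 ± 0.11, adjusted p = 0.000189; 1.47% of genes). With the filter on low counts, 0 genes of any kind were called for Tgfb by edgeR (450 at an unadjusted p under 0.05) and 0.193% for Bmp. With no filter 4 further member differences were called: RA on Fgf4 (0.79 ± 0.21, adjusted p = 0.00722; 2.92% of genes), Wnt on Fgf17 (0.93 ± 0.26, adjusted p = 0.0103; 4.38%), Tgfb on Fgf15 (-2.04 ± 0.37, adjusted p = 8.37e-05; 0.202%, 42 genes) and Bmp on Fgfr1 (-0.39 ± 0.10, adjusted p = 0.0201; 0.448%). With the filter their adjusted p-values were 0.0646, 0.0741, 0.166 and 0.0827. No RA or Wnt effect on Fgf8 or Fgfr2 was called as different in either fit.

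Of 140 products in the mixed experiment 5 were called (3.57%, against 0.506% over all genes). In pretreated wells the Wnt by Bmp product on Fgf8 was 1.64 ± 0.33 (adjusted p = 0.000614; 1.94% of genes): wells with Bmp and without Wnt averaged 13.7 CPM (1.56 to 66.0, median 5.91), against 32.2 CPM with neither, 40.8 CPM with Wnt alone and 50.9 CPM with both. Fgf17 had the same kind of product (1.15 ± 0.31, adjusted p = 0.0193), with means of 5.67, 9.78, 20.1 and 25.5 CPM in that order. The undirected Fgf8 product of -0.99 ± 0.61 (adjusted p = 0.81) was not called. The difference of these products between the starts was not tested.

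The RA by Wnt product was -1.31 ± 0.32 for Fgf17 in pretreated wells (adjusted p = 0.00824; 2.5% of genes). All 16 wells with Wnt and without RA held 20.6 to 79.8 CPM of Fgf17, while the highest level in any other set of wells was 20.5 CPM. For Fgf3 the same product was -1.95 ± 0.58 (adjusted p = 0.0403), with means of 13.6 CPM with Wnt alone, 6.28 CPM with both, 1.97 CPM with RA alone and 1.04 CPM with neither, and it was not called with UMIs per cell as a covariate (adjusted p = 0.095). In undirected wells Fgfr1 had an RA by Fgf product of 0.73 ± 0.16 (adjusted p = 0.0118; 0.234% of genes). Its mean was 51.7 CPM with Fgf alone (24.5 to 90.4), and 78.8 to 90.3 CPM in the other 3 sets.

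Other genes of the pathway were read from lists of ligands, membrane modulators, kinases and ERK targets. With Fgf plus in the germ layer experiment, 12 of 16 tested genes of ERK feedback were higher and 0 lower, with a median of 0.78 over the list and -0.01 over all genes, of which 4.58% were higher and 3.35% lower. The ETS factor Etv4 rose by 1.62 ± 0.16, the ERK phosphatases Dusp4 and Dusp6 by 1.90 ± 0.21 and 1.45 ± 0.16, and the feedback inhibitor Spry4 by 2.10 ± 0.24. The membrane protein Flrt3, which binds FGF receptors, was lower (-0.55 ± 0.09). No adaptor or kinase gene of 14 tested was called for Fgf. In the mixed experiment 7 of 14 ERK feedback genes were higher with Fgf in undirected wells and 11 of 14 after pretreatment, with none lower, and Etv4 rose by 2.05 ± 0.17 and 1.45 ± 0.12. Fgf17 was the member called higher with Fgf in the germ layer populations. In the mixed wells none was with the filter on low counts, and without it Fgf17 (0.39 ± 0.13, adjusted p = 0.0358) and Fgfr1 (adjusted p = 0.0335) were after pretreatment.

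For the other germ layer pathways, counts of the same lists are set beside the shares of all genes. With RA, 1 of 16 ERK feedback genes was higher (the phosphatase Dusp5, 1.09 ± 0.18) and 7 were lower, and 0 of 14 adaptor and kinase genes were higher and 6 lower (14.1% of all genes higher, 13.6% lower). The ligand Fgf5 fell by 2.35 on the log2 scale, and the FGF-binding proteins Fgfbp3 (2.07 ± 0.23) and Fgfbp1 (-1.21 ± 0.20) went opposite ways. With Wnt, 2 ERK feedback genes were higher and 3 lower, and 1 adaptor or kinase gene was higher and 6 lower (12.1% of all genes higher, 11.9% lower). Fgfbp3 was higher (1.91 ± 0.23) and Fgf5 (-1.60 ± 0.29), the glypican Gpc4 (-0.71 ± 0.12) and the ERK kinase Mapk3 (-0.29 ± 0.06) lower. With Tgfb, Fgf5 (1.87 ± 0.30), the membrane inhibitor Il17rd (0.90 ± 0.14) and the ETS factor Etv5 (0.89 ± 0.15) were higher and Flrt3 (-0.62 ± 0.09) lower, and 4 of 16 ERK feedback genes were higher and 0 lower, with no adaptor or kinase gene called (4.07% of all genes higher, 2.95% lower). With Bmp, 8 of 14 adaptor and kinase genes were higher and 0 lower, and 2 ERK feedback genes were higher and 6 lower (21.6% of all genes higher, 21.5% lower). Flrt3 (0.64 ± 0.09) and the glypican Gpc1 (0.65 ± 0.09) were higher and the ETS factor Etv1 (-1.76 ± 0.18) lower. Flrt3 and Gpc1 were the only membrane genes called higher with Bmp: of 10 tested, 2 were higher and 4 lower. Of 3 other ligands tested, 1 was higher and 2 were lower.

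Across the 32 germ layer populations the gene whose level was most like that of Fgf8, of 7474 genes with a mean of at least 10 CPM, was Npm3, at a Pearson correlation of 0.925 on log2(CPM + 5). Npm3 encodes a histone chaperone of the nucleoplasmin family and lies 4818 bases from Fgf8 on the same strand, with no protein-coding gene between them. Its level was 197 to 597 CPM, its effects were -0.32 ± 0.07 for RA, 0.48 ± 0.07 for Tgfb and -0.50 ± 0.07 for Bmp, with the signs of Fgf8, and its values for Wnt (0.09 ± 0.07) and Fgf (0.06 ± 0.07) were not called, as for Fgf8. The correlation was 0.584 over 300 mesendoderm wells, 0.556 over 70 undirected and 0.749 over 72 pretreated mixed wells, and in each set the points share a library and vary in depth. The next genes were Ly6e (0.800) and Ppp4r4 (0.764).

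**Figure D5:**
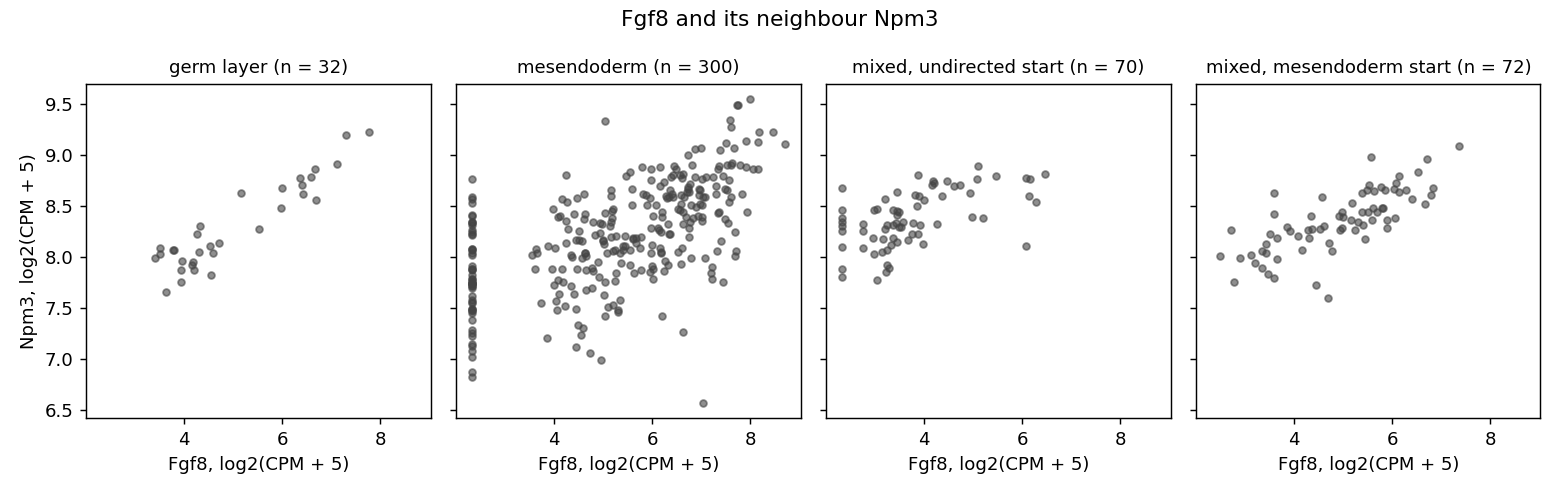
Fgf8 (x axis) against its neighbour Npm3 (y axis), both as log2(CPM + 5), for germ layer populations and for wells of the other experiments; each point is a population or well. The germ layer points lie along a line (r = 0.925, n = 32), and points at the left edge of the well plots are wells with no Fgf8 UMI.

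For Fgf15 the most similar genes were H3f3a (0.799), Cbx1 (0.784) and Adk (0.771), for Fgfr1 they were Ctr9 (0.733), Nudt4 (0.721) and Pcgf5 (0.703), and for Fgfr2 Wdr86 (0.804), Snhg11 (0.801) and Npdc1 (0.777). Among the members, Fgf8 correlated with Fgf17 at 0.751, with Fgf15 at 0.370 and with Fgf3 at 0.146. These are descriptions over 32 populations of 1 library.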

How the data were processed

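Single-cell UMI counts were used as deposited by the authors, unnormalised, 1 matrix for each of 3 experiments, with the deposited barcodelet assignments and their pass mark. HTSeq 0.9.1, STAR 2.5.2b, Cell Ranger 1.3.1 and build mm10 were used, per the submitters' processing notes; their roles and strand use are not given in the sources used here. UMIs are 3′ molecule counts, so levels are not compared between genes. No doublet caller was run. The 14 bulk libraries are not analysed here.

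Counts of passing cells were summed for each population or well with at least 5 cells, and CPM are counts scaled to 1000000 UMIs. Tests used edgeR 4.0.16 (R 4.3.3): TMM, filterByExpr, glmQLFit and glmQLFTest, 2-sided, Benjamini-Hochberg within each contrast, with plus and minus coded 0.5 and -0.5. Standard errors are the fold change over the root of F. Populations of an experiment share 1 library, so p-values measure the spread between its populations or wells. The germ layer experiment had 1 population for each combination, so its spread is the residual of the fitted model. Products of pathways left out of a model are part of that residual. DESeq2 1.42.0 and other filters, scalings and models were alternatives, and the scripts were tested on simulated data. Shares of cells used Clopper-Pearson 95% intervals (scipy 1.17.1, Python 3.11.15; figures by matplotlib 3.10.9).

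Members and lists were chosen with earlier results of these data known. Named genes were the 9 members; from the lists, up to 4 called genes of smallest adjusted p in a contrast and the strongest call of opposite direction; and the 3 genes most correlated with each member of at least 10 CPM. A gene that this rule names is not reported here.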

Additional observations from a re-analysis of the deposited data

Results flagged for a closer look

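Among 18 groups of control wells, 3 had a well that stood far from the other 7. Chance gives such a well in about 1 group of 20 for continuous values; that rate does not hold for sparse counts, and the 18 groups are the 9 genes read in the same 16 wells. Fgf15 after mesendoderm pretreatment was 7.775 CPM in the well tagged J, P and Z, where the next well had 2.356 CPM. Fgf17 in undirected wells was 19.94 CPM in the well tagged CC, J and K, where the others held 3.887 to 8.038 CPM. Fgfr4 in undirected wells was 1.266 CPM in the well tagged BB, J and N and 0 in the others, a value of a single UMI that stands apart by construction.

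The pathway effect differed between starts, mesendoderm less undirected on the log2 scale, in 4 effects on 3 members by the test of the difference in edgeR: 2.306 for RA on Fgf15, 2.239 for Wnt on Fgf3, 2.917 for Wnt on Fgf15 and 0.600 for Fgf on Fgfr1, with adjusted p-values of 0.000255, 0.00314, 6.07e-05 and 0.000189. The undirected RA effect on Fgf15 rested on few wells, and these differences were not refitted with products of pathways.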

How the results depend on the processing

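The 82 called member effects were refitted 539 times under the alternatives: 509 refits kept direction and call, 30 kept the direction and lost the call (19 effects, the main ones given beside the results), and none reversed. With no filter on low counts, calls rose from 6 to 11 for mesendoderm effects, from 3 to 6 for mesendoderm products, from 4 to 8 for mixed effects differing by start and from 5 to 8 for mixed products; that setting tests more members and more genes. All other counts of calls stayed within 1.5 times. Leaving out each germ layer population in turn, chosen after the data were seen, gave 15 to 17 calls against 16, and 15 of 512 refits lost a call, 14 of them for RA on Fgf15. No paired analysis was possible because replicate numbers in the labels belong to bulk libraries. The sets of wells read from the well tags were entered as a term instead, which kept all 33 mixed calls and 5 of 6 mesendoderm calls, all but Fgfr1 for Tgfb (adjusted p = 0.116).

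Depth limits the sparse members: Fgfr3 and Fgfr4 passed the filter in none of the main fits of pathway effects. In the main fits the mesendoderm wells, with a median of 8 cells, tested only Fgf8 and Fgfr1.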
